A study of Mus musculus with 77 samples.

Results

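The corticotropin-releasing hormone (CRH) and pituitary adenylate cyclase-activating polypeptide (PACAP) systems were examined in the mouse BNST (bed nucleus of stria terminalis, a small forebrain region) after chronic social defeat stress (CSDS). The 6 genes were chosen by symbol: Crh, Crhr1, Crhr2, Crhbp, Adcyap1 and Adcyap1r1. All 6 had a row among the 16587 genes of the table of mRNAs bound to Argonaute 2 (AGO2), the protein that carries microRNAs (miRNAs) to their target mRNAs. The table held 14 libraries of male C57BL/6Crl mice (the spelling of the labels, C57BL/6NCrl in the study's methods) aged 8 weeks, with tissue taken 6 to 8 days after the end of defeat. They came from 5 undefeated control pools, 5 pools of defeated mice classed as resilient and 4 pools of defeated mice classed as susceptible, and each pool held the BNST of 3 animals. Defeated mice were classed by social avoidance. Susceptible mice avoided an unfamiliar mouse more than the controls did, by a set margin, and resilient mice were all other defeated mice. Per the study, the resilient and susceptible mice profiled were those with the least and the most avoidance. The pools held between 3701281 and 10659882 reads in genes. No input RNA was analysed here, so a change in the amount of an mRNA and a change in its binding to AGO2 cannot be told apart. In tissue of mixed cells, fewer cells of a type and less RNA per cell cannot be told apart either.

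CRH is a stress peptide made by neurons of the hypothalamus and of the extended amygdala, to which the BNST belongs. It acts through the receptors encoded by Crhr1 and Crhr2, and a secreted binding protein, encoded by Crhbp, holds it away from them. PACAP, encoded by Adcyap1, acts mainly through the PAC1 receptor (Adcyap1r1) and also through the receptors VPAC1 (Vipr1) and VPAC2 (Vipr2), which it shares with vasoactive intestinal peptide. All of these receptors can raise cyclic AMP through the stimulatory G protein, and PACAP in the BNST is best known for its part in anxiety-like behaviour after stress.

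Of the 6 genes, Crhr1 and Adcyap1 hold a sequence motif that matches a miRNA family read in the same AGO2 preparations. The regions searched in the others did not hold it, and 17.9% of all genes searched did. Members of the miR-34 and miR-449 family share the seed GGCAGUG (bases 2 to 8), shown in capitals in the mature sequences below, which are from RefSeq.
miR-34a-5p: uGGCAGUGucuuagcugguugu
miR-34b-5p: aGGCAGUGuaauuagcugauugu
miR-449a-5p: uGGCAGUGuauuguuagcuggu
miR-449c-5p: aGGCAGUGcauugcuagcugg
The complement of the seed, CACTGCC, was searched for on the mRNA strand in the longest annotated 3′ untranslated region of each gene (GENCODE, build GRCm38). It occurred once in Crhr1 and once in Adcyap1, and it is shown in capitals in 30 bases of each mRNA, written as DNA.
Crhr1: tcatcagcactgtggCACTGCCactggaaa
Adcyap1: ctcctctgtaggttcCACTGCCtgacagat
The match in Crhr1 lies at chr11:104175058-104175064 on the plus strand and starts at base 530 of the 995 bases after the stop codon. The match in Adcyap1 lies at chr17:93205065-93205071 on the plus strand and starts at base 938 of 2410. These letters did not occur in the regions of Crh (512 bases), Crhr2 (1229), Crhbp (566), Adcyap1r1 (4280) or Vipr2 (1951). Of 13863 genes searched in this way, 2480 (17.9%) held at least 1 match, so holding one is common.

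Where the 6 genes stood relative to each other was compared per length, as reads scaled to the depth of the pool (CPM) divided by the kilobases of annotated exon. Adcyap1r1 had the highest level, with a median of 20.8 CPM per kilobase over the 14 pools and a range of 14.6 to 22.8. Crhr1 followed at a median of 5.98 and a range of 3.46 to 11.0. Adcyap1r1 was above Crhr1 in 14 of 14 pools, by a median of 3.38 times, and both receptors were above the other 4 genes in 14 of 14 pools. The remaining medians per length were 0.913 for Adcyap1, 0.703 for Crh, 0.641 for Crhbp and 0.365 for Crhr2. Neighbours in this lower part of the order changed places between pools: Adcyap1 was above Crh in 9 of 14 pools, Crh was above Crhbp in 9 of 14, and Crhbp was above Crhr2 in 12 of 14. The main receptors of both peptides were therefore above the peptide genes themselves in the AGO2 fraction, while Crhr2 was the lowest of the 6 per length. The length was the merged exons of all annotated transcripts of a gene, 5115 bases for Crhr2 and 2460 for Crhr1. The place of Crhr2 and the share of Crhr1 given next depend on this length. Without regard to length, the mean log2 CPM of Crhr2 (1.05) was above that of Crhbp (0.10) and Crh (0.086). Of the 2 CRH receptors, Crhr1 made up between 84.2% of the summed level per length (control pool 1) and 98.2% (resilient pool 5).

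**Figure D1:**
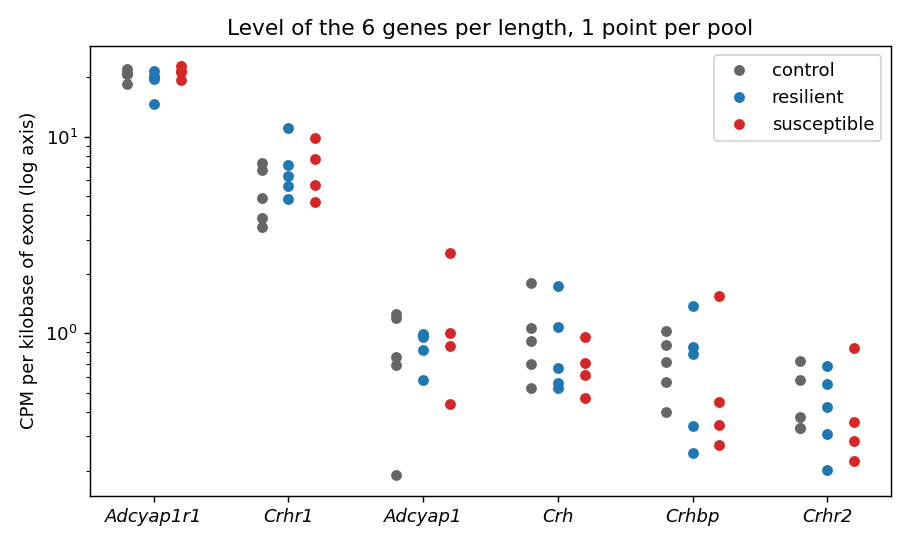
Level of the 6 genes in CPM per kilobase of exon (log axis), with 1 point for each of the 14 pools, coloured by group. Adcyap1r1 (14.6 to 22.8) and Crhr1 (3.46 to 11.0) lie above the other 4 genes, whose points overlap.

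Against all 16587 genes, without regard to length, the mean log2 CPM of Adcyap1r1 was above that of 89.0% of genes and that of Crhr1 above 43.9%. The mean was above 20.4% of genes for Adcyap1, 15.03% for Crhr2, 6.32% for Crhbp and 6.13% for Crh. The reads behind these levels set what could be seen. Crh rested on 2 to 10 reads in a pool (82 in all), Crhbp on 1 to 22 (105), Crhr2 on 3 to 34 (188), Adcyap1 on 3 to 77 (307), Crhr1 on 41 to 194 (1254) and Adcyap1r1 on 325 to 1435 (11062). For Crh the SD between pools within groups, 0.638 on the log2 scale, was no larger than the 0.658 that read counting alone would give. For Crhr1 the SD between pools was 0.470 against 0.165 from counting, for Adcyap1 it was 0.883 against 0.413, and for Adcyap1r1 it was 0.152 against 0.0548.

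The question put to the 6 genes was whether they differed between control, resilient and susceptible pools. None of the 6 passed the test in any of the 3 comparisons (limma, p under 0.05 with at least a 1.2-fold difference), and the lowest adjusted p, that of Crhr1 in resilient against control pools, was 0.374. By this rule 17.7% of all genes were called in resilient against control pools, 18.9% in susceptible against control pools and 2.14% in susceptible against resilient pools. With p adjusted over all genes (Benjamini-Hochberg), the shares under 0.05 were 1.95%, 4.02% and 0%. In susceptible against resilient pools that 0% compares with the 2.14% called at an unadjusted p. The groups overlapped for all 6 genes in all 3 comparisons, while 5.18%, 10.9% and 0.591% of all genes had groups that did not overlap. Both comparisons with controls use the same 5 control pools, so their values are given side by side and are not independent. The smallest p that an exact permutation test of 2 groups can reach here is 0.00794.

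**Figure D2:**
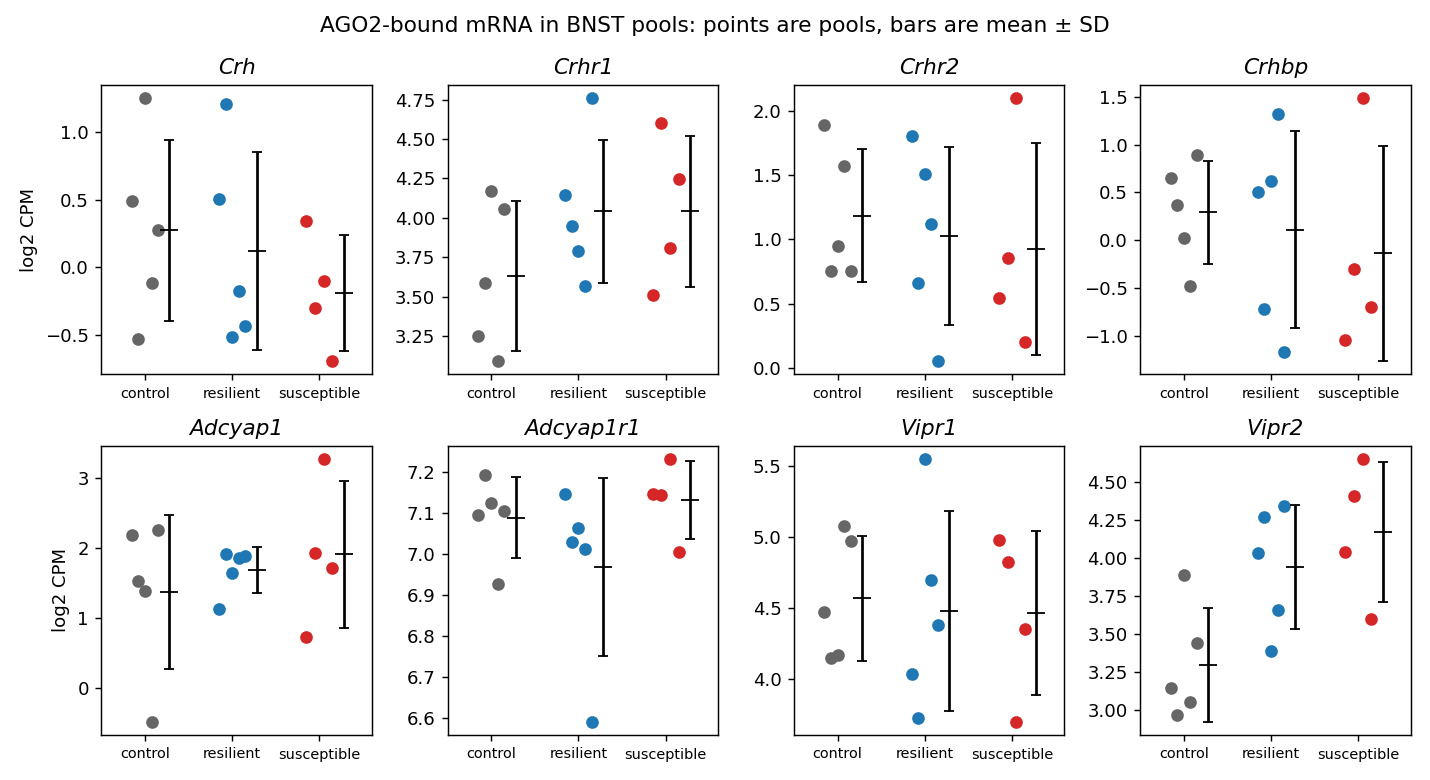
The log2 CPM of AGO2-bound mRNA in each pool (points) by group, with the group mean ± SD beside them, for the 6 genes and for Vipr1 and Vipr2. The groups overlap in every panel, and Vipr2 has 3 resilient and 3 susceptible pools above all 5 control pools.

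Crh, the ligand gene (chr3:19693401-19695396, minus strand), was near the lower end of what the libraries could count. It stood at log2 CPM values of 0.49, -0.53, 1.25, -0.11 and 0.27 in control pools 1 to 5, then 0.51, 1.21, -0.52, -0.18 and -0.43 in resilient pools 1 to 5, and 0.34, -0.30, -0.10 and -0.69 in susceptible pools 1 to 4. The highest value was in a control pool and the next in a resilient pool, and only susceptible pool 4 lay below all control pools. Against controls, Crh differed by -0.16 (SE 0.44) on the log2 scale in resilient and by -0.46 (SE 0.47) in susceptible pools. Summed over pools, Crh was at 1.203 CPM in controls (exact Poisson 95% interval 0.823 to 1.70), 0.989 in resilient (0.657 to 1.43) and 0.819 in susceptible pools (0.513 to 1.24). These intervals cover counting error only, and they overlap. The 95% interval of the susceptible difference, -1.45 to 0.53 on the log2 scale, runs from a fall to a gain.

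Crhbp, whose product binds CRH and urocortin outside the cell (chr13:95431371-95444924, minus strand), was as rare. Crhbp stood at log2 CPM values of 0.65, 0.37, 0.03, -0.48 and 0.89 in the control pools, 0.51, -0.72, 0.62, 1.32 and -1.17 in the resilient pools, and -1.04, -0.30, 1.48 and -0.69 in the susceptible pools. Susceptible pool 3 was the highest of all 14 pools, while susceptible pools 1 and 4 lay below every control pool. Resilient pool 4 also lay above every control pool, and resilient pools 2 and 5 lay below every control pool. Crhbp differed from controls by -0.18 (SE 0.55) in resilient and -0.43 (SE 0.58) in susceptible pools on the log2 scale. The summed levels of 1.24, 1.38 and 1.23 CPM in control, resilient and susceptible pools were close to each other. The susceptible level rested mostly on susceptible pool 3, with 22 reads against 2, 6 and 3 in susceptible pools 1, 2 and 4.

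Crhr1 (chr11:104132855-104175523, plus strand) encodes the receptor with the higher affinity for CRH. The pools gave log2 CPM values of 3.25, 3.58, 4.17, 3.09 and 4.06 in the control pools, 4.15, 3.95, 3.79, 3.56 and 4.76 in the resilient pools, and 3.51, 4.60, 3.81 and 4.25 in the susceptible pools. One resilient and 2 susceptible pools lay above every control pool, and the other defeated pools fell within the control range. The mean was 3.63 ± 0.48 (SD, n = 5) in controls, 4.04 ± 0.45 (n = 5) in resilient and 4.04 ± 0.48 (n = 4) in susceptible pools. The log2 fold change against controls was 0.41 in both, with 95% intervals of -0.13 to 0.95 (resilient, limma p = 0.127, exact permutation p = 0.214) and -0.16 to 0.99 (susceptible, limma p = 0.150, exact permutation p = 0.222). The difference between susceptible and resilient pools was -0.00074, with an interval of -0.58 to 0.57. Of the miR-34 and miR-449 family, miR-34c-5p, the most abundant, was called lower in susceptible against control pools, by -1.28 (SE 0.48, limma adjusted p = 0.884) on the log2 scale, and not in resilient pools (-0.59, SE 0.42). The study, which adjusted its AGO2 miRNA values for detected surrogate variables, reported nominally lower miR-34c in both defeated groups. Among the 788 miRNA rows 9.52% were called in resilient and 4.7% in susceptible against control pools. The log2 CPM of miR-34c-5p was 12.07, 11.45, 11.15, 11.83 and 9.91 in the control pools, 12.16, 10.56, 10.85, 10.06 and 9.83 in the resilient pools, and 9.48, 9.51 and 11.02 in susceptible pools 1, 2 and 4. The groups overlapped, and susceptible pools 1 and 2 were below all others. Its susceptible call was lost without either of these pools (-1.01 and -1.03), and a resilient call was made without control pool 5 (-0.93) or resilient pool 1 (-0.96). The 4 miRNAs whose sequences are shown above were not called in any comparison with all pools. miR-34a-5p differed from controls by 0.42 (SE 0.28) in resilient and 0.50 (SE 0.32) in susceptible pools, and was called in both without resilient pool 3 (0.71 and 0.50). miR-34b-5p differed by -0.44 and -0.88, with a susceptible call without control pool 5 (-1.23) or susceptible pool 4 (-1.48), and miR-449a-5p by 0.56 and 0.21, with a resilient call without resilient pool 2 (0.87). In susceptible against resilient pools miR-34c-5p was called without susceptible pool 4 (-1.20) and miR-449a-5p without resilient pool 2 (-0.66).

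Crhr2 (chr6:55090049-55133016, minus strand) encodes the receptor that prefers the urocortins. Crhr2 stood at log2 CPM values of 1.90, 0.75, 0.94, 1.57 and 0.76 in the control pools, 1.80, 0.66, 1.51, 1.12 and 0.05 in the resilient pools, and 0.55, 0.85, 2.10 and 0.20 in the susceptible pools. Each group held both high and low pools, and susceptible pool 3 was again the highest of the 14. Crhr2 differed from controls by -0.16 (SE 0.41) in resilient and by -0.26 (SE 0.43) in susceptible pools on the log2 scale. The urocortin genes were not analysed here.

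Adcyap1, the PACAP gene (chr17:93199017-93206537, plus strand), varied widely among the control and susceptible pools. Its log2 CPM was 2.18, 1.52, 1.38, -0.48 and 2.25 in the control pools, 1.14, 1.91, 1.64, 1.86 and 1.89 in the resilient pools, and 0.73, 1.93, 3.27 and 1.71 in the susceptible pools. The lowest value of all, from 3 reads, was in control pool 4 and the highest, from 77 reads, in susceptible pool 3. The log2 fold change against controls was 0.32 (SE 0.48) in resilient and 0.54 (SE 0.51) in susceptible pools, and each was smaller than the SD of 1.103 among the control pools. Without control pool 4 the resilient value was -0.15 and the susceptible value was 0.074. The susceptible value also fell without susceptible pool 3.

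Adcyap1r1, which encodes PAC1 (chr6:55451978-55501451, plus strand), was the best measured of the 6. Its log2 CPM was 7.09, 7.19, 7.12, 6.93 and 7.10 in the control pools, 7.14, 7.03, 7.06, 7.01 and 6.59 in the resilient pools, and 7.15, 7.14, 7.23 and 7.00 in the susceptible pools. Apart from resilient pool 5 the values lay between 6.93 and 7.23. The log2 fold change was -0.12 in resilient (95% interval -0.33 to 0.089) and 0.043 in susceptible pools (-0.18 to 0.26) relative to controls. Between susceptible and resilient pools it was 0.16 (-0.058 to 0.38), or 0.069 without resilient pool 5. As folds, the intervals against controls run from 0.796 to 1.06 and from 0.884 to 1.201, the narrowest among the 6 genes.

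**Figure D3:**
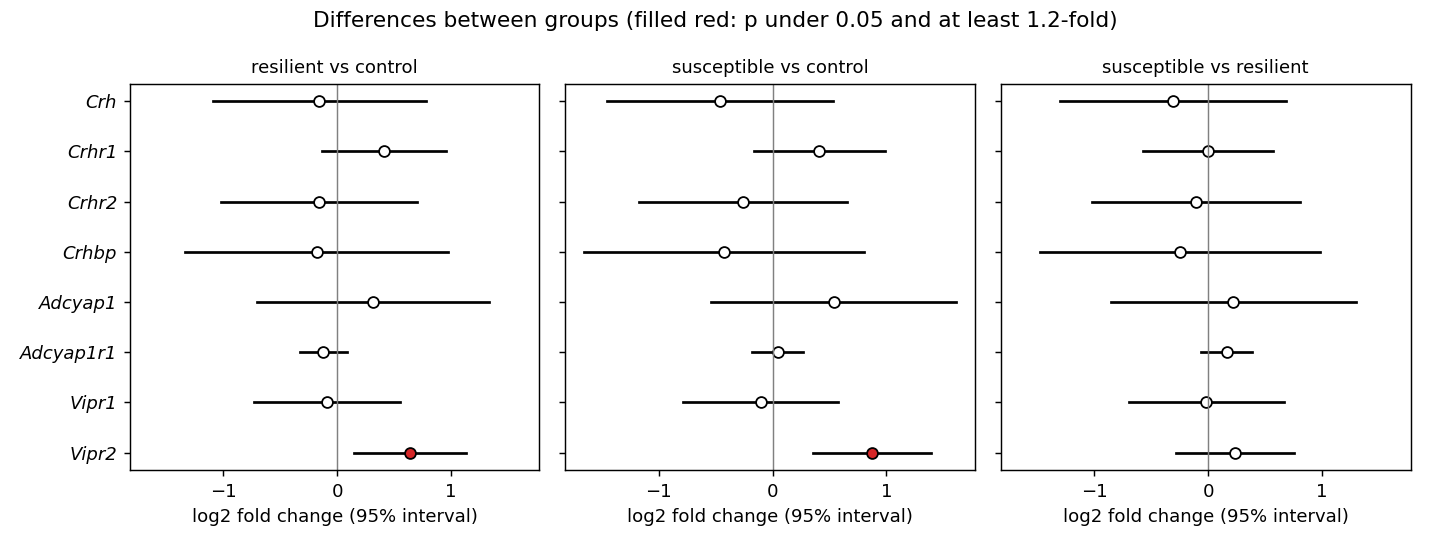
The log2 fold change (point) and its 95% interval (line) for the 6 genes and for Vipr1 and Vipr2 in the 3 comparisons. Only Vipr2 is marked as called, at 0.64 (resilient) and 0.88 (susceptible) against controls, and the intervals of Adcyap1r1 are the narrowest.

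Vipr2 was called higher in both defeated groups, and its difference from the other receptors was not tested. It encodes VPAC2, which binds PACAP and vasoactive intestinal peptide with like affinity (chr12:116077726-116146261, plus strand). Its log2 CPM was 3.14, 2.97, 3.89, 3.06 and 3.44 in the control pools, 4.04, 4.27, 3.39, 3.66 and 4.34 in the resilient pools, and 4.04, 4.41, 4.65 and 3.60 in the susceptible pools. The 3 highest resilient and the 3 highest susceptible pools lay above all control pools, and control pools 3 and 5 were the only controls within the range of the defeated pools. Against controls it was 1.56-fold higher in resilient pools (log2 0.64, SE 0.23, limma p = 0.0131, adjusted p = 0.136, exact permutation p = 0.0397). In susceptible pools it was 1.83-fold higher (log2 0.88, SE 0.25, limma p = 0.00231, adjusted p = 0.0536, exact permutation p = 0.0317). Neither adjusted p was under 0.05. Susceptible and resilient pools differed by 0.24 on the log2 scale, with an interval of -0.28 to 0.75, and by 0.076 without susceptible pool 3, 0.098 without resilient pool 3 and 0.43 without susceptible pool 4.

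Vipr1, which encodes VPAC1 (chr9:121642716-121672954, plus strand), was not called. Its log2 CPM was 4.47, 4.15, 4.17, 5.08 and 4.98 in the control pools, 4.04, 3.73, 5.55, 4.70 and 4.38 in the resilient pools, and 4.98, 4.83, 3.70 and 4.35 in the susceptible pools. Resilient pools spread most widely, with 2 below and 1 above every control pool, and the log2 fold change against controls was -0.089 (SE 0.31) and -0.10 (SE 0.32). The gene of vasoactive intestinal peptide was not analysed here.

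How the 6 genes moved with each other was described by Pearson's r over the 14 pools, whose values share each pool's depth. The highest r was 0.688, between Crhr2 and Crhbp, and the lowest was -0.521, between Crhr1 and Crhr2. Crh had an r between -0.0840 and 0.235 with the other 5 genes. Among the 12639 genes whose log2 CPM averaged 2 or more, the pattern most like that of Crhr1 was that of Unc119 (r = 0.901, Spearman's rho = 0.903), then Ankrd35 and Lamtor3. For Crhbp it was Tent5a (r = 0.880, rho = 0.916), then Plxnc1 and Zfp84. For Crhr2 it was Wdfy3 (r = 0.815), then Vps53 and Lgals3bp, for Adcyap1 Rragb (r = 0.848), then Lemd1 and Ogfod1, and for Crh Wnt5a (r = 0.801), then Lrrc75b and Shc4. Adcyap1r1 was most like Hpcal1 (r = 0.938, rho = 0.732), then AW551984 and Trmt12. Leaving out the 2 pools farthest from the median of each gene gave 0.854 for Unc119, 0.846 for Tent5a and 0.762 for Wdfy3. The r of Rragb fell to 0.550, that of Wnt5a to 0.629 and that of Hpcal1 to 0.744. Each is the largest of 12639 values, and no test was made of them.

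Downstream of the receptors, the genes of G proteins, adenylyl cyclases, protein kinase A and the factors it controls were followed as a list of 25, all in the table. Against controls, 3 were called higher and 4 lower in resilient pools, and 3 were called higher and 5 lower in susceptible pools. Among all genes, 8.65% were called higher and 9.04% lower in resilient pools, and 9.65% and 9.28% in susceptible pools. The median log2 fold change of the list was -0.13 and -0.17, against -0.021 and -0.011 for all genes. None of the 25 was called in susceptible against resilient pools.

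The AGO2-bound mRNAs of adenylyl cyclases 6 and 7, enzymes that make cyclic AMP, were called higher in both defeated groups. The log2 CPM of Adcy7 was 4.18, 4.32, 4.02, 3.73 and 3.90 in the control pools, 4.98, 5.25, 4.39, 4.88 and 4.26 in the resilient pools, and 4.39, 5.53, 5.40 and 4.83 in the susceptible pools. All susceptible pools and all resilient pools but resilient pool 5 lay above the controls. The difference was 0.73 (SE 0.22, adjusted p = 0.0825) in resilient and 1.01 (SE 0.23, adjusted p = 0.0252) in susceptible pools. The log2 CPM of Adcy6 was 6.20, 6.43, 6.54, 6.21 and 6.27 in the control pools, 6.72, 7.13, 6.51, 6.65 and 6.95 in the resilient pools, and 6.61, 7.10, 7.24 and 6.85 in the susceptible pools. Resilient pool 3 alone among the 9 defeated pools fell within the control range, and the differences were 0.46 (SE 0.13, adjusted p = 0.0685) and 0.62 (SE 0.14, adjusted p = 0.0232). For 10.9% of all genes the susceptible and control pools did not overlap. Crtc2, a coactivator of the cyclic AMP response factor CREB, was higher by 0.39 (SE 0.13) and 0.32 (SE 0.14), and its susceptible call was lost without control pool 1 (0.28), susceptible pool 2 (0.32) or susceptible pool 4 (0.22).

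Genes of catalytic subunits and of G proteins were among those that fell. Prkaca, a catalytic subunit of protein kinase A, was at 7.97, 7.83, 8.05, 8.00 and 7.76 log2 CPM in the control pools, 7.72, 7.60, 7.63, 7.58 and 7.83 in the resilient pools, and 7.72, 7.04, 7.57 and 7.40 in the susceptible pools. All susceptible pools were below all control pools, and the difference was -0.49 (SE 0.12, adjusted p = 0.0303). Gnal, which encodes the stimulatory G protein subunit common in the striatum and olfactory system, was lower by -0.42 (SE 0.17) in resilient and -0.61 (SE 0.18) in susceptible pools. The catalytic subunit gene Prkacb was lower by -0.28 (SE 0.11) and -0.32 (SE 0.11). Gna11 and Prkar1b were called lower in resilient pools (both -0.31), and Gnaq (-0.37) and Prkar2a (-0.28) in susceptible pools. Prkar2a was named after its values were seen, to complete the count. Resilient pool 2 bore much of the lower side: without it 1 gene was called lower in resilient pools and Gnal (-0.27) and Prkacb (-0.22) were not. Without resilient pool 3 the count was 8. Without susceptible pool 2 the susceptible count was 2, and Gnaq (-0.26), Prkacb (-0.25) and Prkar2a (-0.17) were not called. The resilient call of Prkacb was also lost without control pool 1, 2 or 5 or resilient pool 1 (-0.26 to -0.25), and that of Prkar1b without control pool 3 (-0.26), resilient pool 1 (-0.28) or resilient pool 2 (-0.23). The susceptible call of Prkar2a was lost on leaving out any 1 of 10 pools.

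Genes that make, sort and release neuropeptides formed a list of 13, all in the table. None was called higher, while relative to controls 4 were called lower in resilient and 5 in susceptible pools, where 9.04% and 9.28% of all genes were. The list medians were -0.21 and -0.28. Pcsk1n, which encodes the inhibitor of prohormone convertase 1, stood at 4.71, 4.45, 6.08, 6.25 and 5.79 log2 CPM in the control pools, 4.91, 4.10, 4.62, 4.28 and 4.30 in the resilient pools, and 4.56, 4.93, 4.89 and 3.47 in the susceptible pools. The 3 highest controls were above all defeated pools and the other 2 were among them, with differences of -1.02 (SE 0.33) and -0.99 (SE 0.35). Pcsk2, the gene of prohormone convertase 2, which cleaves peptide precursors, was lower by -0.35 (SE 0.16) and -0.54 (SE 0.17), and Chgb, a granin of the secretory granule, by -0.30 (SE 0.11) and -0.39 (SE 0.12). Scg2, another granin, was lower in resilient pools (-0.41, SE 0.18), and Scg3 (-0.34, SE 0.11) and Cpe, a carboxypeptidase that trims the cleaved peptides (-0.28, SE 0.10), in susceptible pools. Cpe was named after its values were seen, to complete the count. Pcsk1, the convertase gene itself, was not called.

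None of these 13 genes passed 0.05 after adjustment, and the resilient count ranged from 1 (without resilient pool 1 or 2) to 7 (without resilient pool 3), with 2 without control pool 1. The susceptible count was 3 without susceptible pool 4, which also ended the call of Pcsk1n (-0.66). The resilient calls of Chgb were lost without resilient pool 1 or 2 (-0.26 and -0.25), those of Scg2 on leaving out any 1 of 6 pools and those of Pcsk2 any 1 of 8 pools (-0.23 without resilient pool 2). The susceptible call of Cpe was lost without control pool 1 or 3 or susceptible pool 2 or 4 (-0.25 to -0.23).

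**Figure D4:**
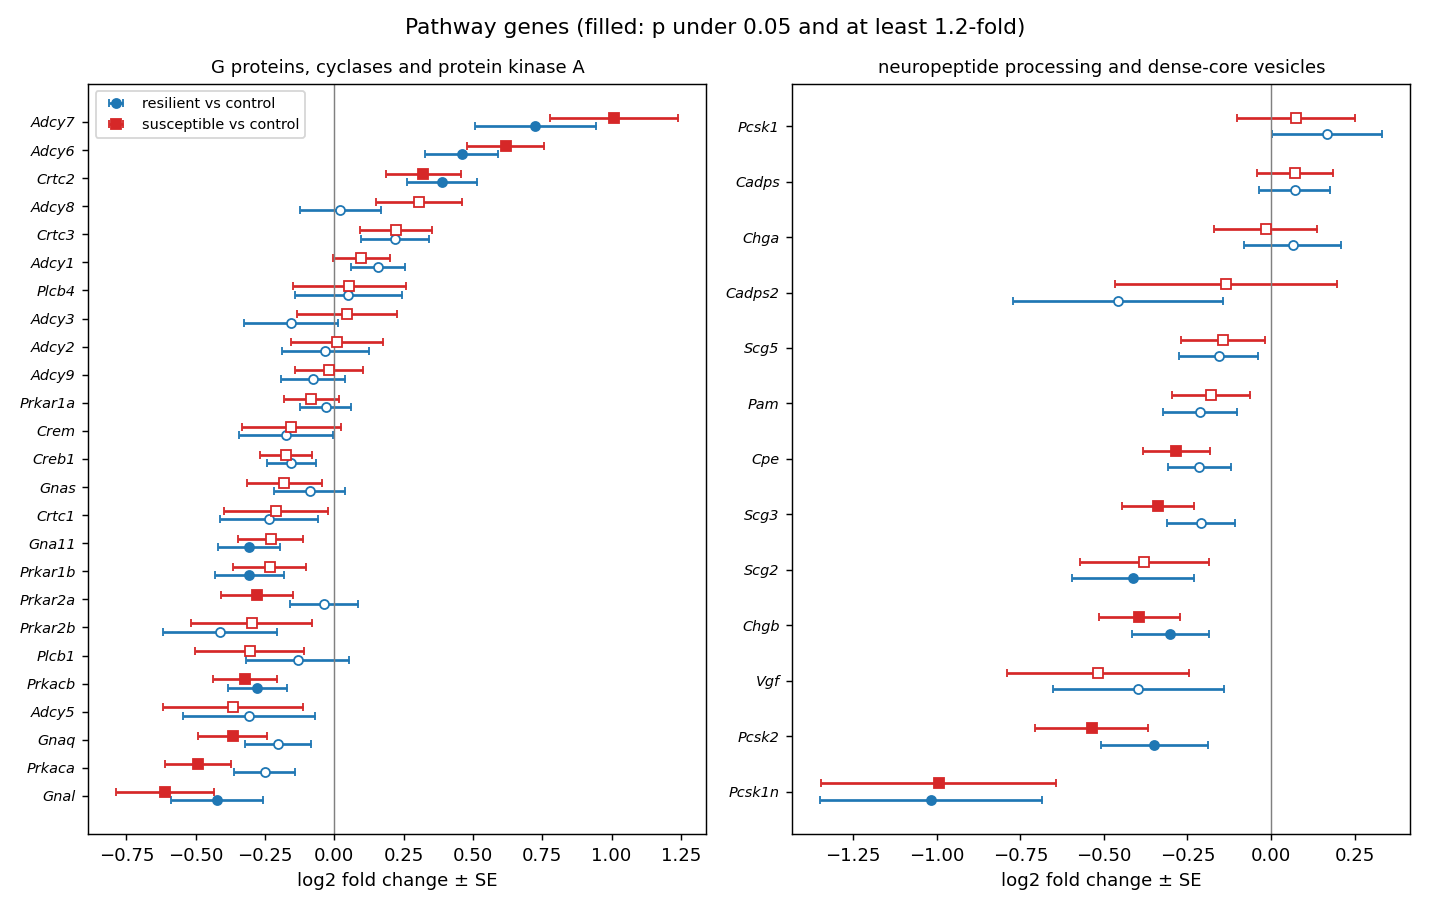
The log2 fold change ± SE against controls of the 25 G protein, cyclase and protein kinase A genes and the 13 peptide processing genes, in resilient (circles) and susceptible (squares) pools, filled where called. Adcy7 and Adcy6 lie farthest to the right, and Pcsk1n farthest to the left.

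Receptor kinases and arrestins, which switch such receptors off, were read in 6 genes. Arrb2, the gene of beta-arrestin 2, was called higher in resilient pools (0.31, SE 0.11), but not without resilient pool 2 (0.26) or resilient pool 5 (0.24). In susceptible pools it stood at 0.26 (SE 0.12), under the fold limit, and no gene of this list was called there. Grk6, a receptor kinase, stood at 0.26 (SE 0.10) and 0.25 (SE 0.11) and was under the fold limit in both. Grk2, Grk3, Grk5 and Arrb1 differed by between -0.19 and 0.15 and were not called.

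Markers of the BNST and of other cells that a punch could hold were read beside these values. Relative to controls, 17.7% (resilient) and 18.9% (susceptible) of all genes were called in either direction, with 9.04% and 9.28% of all genes called lower. All 13 BNST and extended amygdala markers were in the table and summed to between 505 and 824 CPM in a pool, with Prkcd the most abundant. Sst fell by 0.41 in resilient and 0.65 in susceptible pools on the log2 scale and Npy by 0.61 and 0.83, Zic1 fell by 0.86 in susceptible pools, and Prkcd stood 0.64 higher in resilient pools, a call lost in 16 of 22 alternatives. The resilient calls of Sst and Npy were lost on leaving out any 1 of 5 and any 1 of 7 pools, with Npy at -0.42 without resilient pool 5. Of 4 general neuron markers, 1 was lower in resilient (Rbfox3, -0.35, a call lost in 7 of 22 alternatives, with -0.22 without control pool 4) and 3 in susceptible pools (Rbfox3 -0.66, Snap25 -0.45, Syt1 -0.38). Snap25 was not called without susceptible pool 2 (-0.31). Their sum had medians of 1496, 1344 and 1153 CPM in control, resilient and susceptible pools. Of 4 GABA neuron markers, Slc32a1 alone was lower, in susceptible pools (-0.49, a call lost in 12 of 22 alternatives, with -0.23 without susceptible pool 4), and none of 3 glutamate neuron markers was called. Of 6 striatal projection neuron markers, Adora2a was called lower in both defeated groups (-1.01 and -1.05), but not on leaving out any 1 of 6 pools (resilient, -0.62 without resilient pool 2) or any 1 of 8 (susceptible, -0.73 without susceptible pool 3). The list had median sums of 2086, 1661 and 1471 CPM and Pde10a the most abundant gene. Of 4 thalamic markers, Tcf7l2 was lower in both (-0.67 and -0.98) and Prkch in resilient pools (-0.39), while of 7 preoptic and hypothalamic markers in the table Esr1 was called higher in susceptible pools (0.61), a call lost in 12 of 22 alternatives (0.37 without susceptible pool 3). The resilient calls of Tcf7l2 and Prkch were lost on leaving out any 1 of 5 and any 1 of 3 pools, with Tcf7l2 at -0.43 without resilient pool 3.

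Some glial and ventricular markers were called as well, and others were not. Of 6 oligodendrocyte markers, Cnp (-0.27 and -0.44) and Cldn11 (-0.34 and -0.46) were lower in both defeated groups, Mag was higher in both (0.49 and 0.44), and Mbp, the most abundant, was not called. Their sum had medians of 1711, 1772 and 1575 CPM in control, resilient and susceptible pools. Of 6 astrocyte markers, Slc1a2 (-0.42), Slc1a3 (-0.32) and Gja1 (-0.27) were lower and Aldh1l1 (0.37) higher in susceptible pools, with median sums of 1685, 1446 and 1381 CPM. Of 5 microglial markers, Csf1r was higher (0.38 and 0.35) and P2ry12 lower (-0.54 and -0.38) in both, and of 5 endothelial markers Flt1 was lower in susceptible pools against controls (-0.40) and against resilient pools (-0.28). All 3 ependymal markers in the table, Foxj1, Ccdc153 and Tmem212, were lower in both defeated groups. Of the susceptible calls, that of P2ry12 was lost in 12 of 22 alternatives, that of Csf1r in 4 (3 of them leaving out 1 pool, and the replicate block) and that of Gja1 in 8 (-0.16 without susceptible pool 2), Slc1a3 was not called without susceptible pool 2 (-0.20) and the call of Aldh1l1 was lost on leaving out any 1 of 3 pools (0.23 without control pool 2). The resilient call of Foxj1 was lost in 9 of 22 alternatives and that of Cnp on leaving out any 1 of 4 pools. Cldn11 was not called in resilient pools without resilient pool 3 (-0.23), nor Mag in susceptible pools without susceptible pool 4 (0.36). Tmem212 was not called in resilient pools without control pool 1, nor in susceptible pools without susceptible pool 2 or 3.

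Of 6 choroid plexus markers, 5 were lower in susceptible pools (Ttr -3.82, Kcne2 -3.45, Folr1 -2.80, Kl -1.46, Clic6 -0.90) and 1 in resilient pools (Clic6, -0.88). Clic6 stood at -0.56 without susceptible pool 3 and at -0.51 without resilient pool 2, and neither was called. The susceptible call of Ttr was lost with voom on recovered reads and held in the other 21 alternatives. Enpp2, the most abundant of the list and also made by oligodendrocytes, was not called. Ttr, the transport protein that defines the choroid plexus, was at 6.81, 4.40, 6.46, 6.82 and 0.61 log2 CPM in the control pools, 6.08, 3.50, 6.37, 1.79 and 2.00 in the resilient pools, and -0.19, 0.24, -0.31 and 5.04 in the susceptible pools. High and low pools occurred in every group, and 3 of 4 susceptible pools were below all others. The part that these cell types had in the values of the 6 genes, of Vipr2 and of the signalling and processing genes was not tested.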

How the data were processed

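AGO2 was immunoprecipitated from pooled BNST, and bound mRNA and miRNA were sequenced. Per the study's methods the authors aligned mRNA reads with STAR to GRCm38, counted them per gene with HTSeq and deposited log2 CPM values made with limma's voom. The submitters' processing notes also name Bowtie. Whole reads were recovered from the deposited log2 values, which hold 0.5 added reads, and gave the depth. Symbols were taken from a gene name table, and exon lengths, 3′ ends and positions from GENCODE M21.

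All 16587 genes were fitted in 1 model of 3 groups with limma 3.58.1 (R 4.3.3) and a mean-variance trend, and p-values were adjusted by Benjamini-Hochberg over all genes. A call needed p under 0.05 and a fold of at least 1.2. The 788 miRNA rows of 13 pools were fitted likewise. Exact permutation tests were two-sided. The script was tested on simulated data. Named were the 6 genes, Vipr1, Vipr2, up to 4 called genes per direction of each list, the 3 genes most like each member, and marker genes. Members and lists were chosen with earlier results of these data known. Pools were the replicates. Each limma p-value weighed a difference of group means against the spread between pools, with each gene's variance drawn toward a trend over all genes. The study's correction of the AGO2 mRNA values for cohort could not be repeated, because the labels give none. Its adjustment of the AGO2 miRNA values for detected surrogate variables was not repeated either. Blood samples were not used. Some marker genes are not reported here and were left out of the marker counts and sums.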

Additional observations from a re-analysis of the deposited data

Results flagged for a closer look

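Adcyap1r1 in resilient pool 5 stood at 6.59 log2 CPM, from 325 reads, with a gap to the next resilient pool that took 76.1% of the group's range. Without it the resilient difference from controls was -0.026. The summed level of the 3 glutamate neuron markers in susceptible pool 3 was 177 CPM, far above the other 3 susceptible pools (95.3 to 109 CPM) and within the range of the controls (90.7 to 182 CPM). These 2 were found among 63 groups examined for a single outlying pool, and chance alone flags about 1 in 20.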

How the results depend on the processing

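None of the 6 genes was called under any alternative in resilient against control or susceptible against resilient pools. In susceptible against control pools 1 was called in the fit with a replicate block (Crhr1, 0.55, limma adjusted p = 0.247), and 0 under every other alternative. Pool numbers are not shown to pair the samples: deviations of the 13 same-numbered pairs correlated between -0.172 and 0.140, with 2 over 0.1. The block turned Adcyap1r1 in susceptible against control pools to -0.0017 and gave 0.14 for Crhr1 and 0.024 for Vipr1 in susceptible against resilient pools. With array weights these last 2 were 0.032 and 0.042. With voom on recovered reads Crhr1 was 0.16 there, Vipr1 was 0.048 in resilient against control pools, 5 cyclase and kinase genes were called higher and 3 lower in susceptible pools, and 2 peptide processing genes were called lower in resilient pools, as with no mean-variance trend.

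Leaving out 1 pool at a time changed the sign of small differences. In resilient against control pools they ranged from -0.43 to 0.088 for Crh, -0.35 to 0.088 for Crhr2, -0.48 to 0.14 for Crhbp, -0.15 to 0.53 for Adcyap1 and -0.36 to 0.099 for Vipr1. In susceptible against resilient pools they ranged from -0.19 to 0.18 for Crhr1, -0.49 to 0.14 for Crhr2, -0.79 to 0.053 for Crhbp, -0.23 to 0.61 for Adcyap1 and -0.20 to 0.25 for Vipr1, and in susceptible against control pools from -0.28 to 0.15 for Vipr1. The susceptible differences from controls kept their sign for Crh (-0.66 to -0.22, the latter without control pool 3), Crhr2 (-0.65 without susceptible pool 3 to -0.018 without susceptible pool 4), Crhbp (-0.97 without susceptible pool 3 to -0.13 without susceptible pool 1) and Crhr1 (0.22 to 0.59). The miRNA pools were left out in turn by a choice made after seeing the data. Cyclase and kinase genes called lower numbered 1 to 8 (resilient) and 2 to 6 (susceptible), and peptide processing genes 1 to 7 and 3 to 6. Both calls of Vipr2, Adcy6 and Adcy7 and that of Prkaca held in every alternative. Their limma adjusted p did not stay on one side of 0.05: in susceptible against control pools it ranged from 0.0061 to 0.104 for Adcy6, 0.0071 to 0.121 for Adcy7, 0.011 to 0.118 for Prkaca and 0.018 to 0.183 for Vipr2, and in resilient pools from 0.018 to 0.166 for Adcy6, 0.028 to 0.193 for Adcy7 and 0.037 to 0.291 for Vipr2. In susceptible against resilient pools the difference ranged over all alternatives from 0.069 to 0.23 for Adcyap1r1 and from 0.076 to 0.44 for Vipr2, the higher values with voom on recovered reads. Of 27 calls of pathway and receptor genes against controls, 14 held in every alternative, and of 44 calls of markers 19 did. The cause was not tested.

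Among all genes, adjusted calls against controls ranged from 13 (no trend) to 1949 (without resilient pool 3) in resilient pools, where 324 were called, and from 36 (without susceptible pool 2) to 1428 (array weights) in susceptible pools, where 666 were. Calls in susceptible against resilient pools, 355, ranged from 219 to 947, and 0 passed adjustment under any alternative. Crh, Crhbp, Crhr2 and Adcyap1 were removed by the filter on a mean log2 CPM of at least 2, so it gave no value for them. Depth limits these 4 genes most: a pool held as few as 1 read of Crhbp, 2 of Crh and 3 of Crhr2 and of Adcyap1.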
